A study of Mus musculus with 9 samples.

Results

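Sox17, Sox9, Gata6, Gata4, Hnf4a, Foxa2, Foxa3 and Pdx1 encode transcription factors of the endoderm and of the organs that grow from it, the pancreas among them. These 8 genes were chosen by name, with earlier results of these data known. All 8 were found among the 49671 genes counted and passed the filter on low counts in each comparison. RNA was read by bulk sequencing from a mouse pancreatic cancer cell line, KPC49bKO, with CD49b knocked out (KO) and from its counterpart KPCWT (WT). CD49b is the integrin alpha 2 chain, encoded by Itga2, which binds collagen together with the beta 1 chain. The 9 libraries form 4 groups, which are KO tumours (2), WT tumours (3), KO cultures (2) and WT cultures (2). Both lines were grown in DMEM with fetal bovine serum and antibiotics, and the culture libraries come from cells harvested short of confluence. The tumour libraries come from the same lines implanted under the skin of the flank of syngeneic C57BL/6 mice, cut out and dissociated with enzymes, so host cells were part of the sample. The labels give no age, spell out no allele behind the name KPC and do not say whether KPC49bKO is a clone. Each genotype is 1 line, so every KO over WT value is a difference between 2 lines, and what is due to CD49b cannot be told apart from other differences between them.

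In the embryo, SOX17, FOXA2 and the GATA factors act early in endoderm, PDX1 and SOX9 mark pancreatic progenitors, and HNF4A and the FOXA proteins keep gut, liver and pancreas genes switched on. In the adult pancreas SOX9 stays on in ducts and centroacinar cells, and PDX1 stays on mainly in beta cells. In pancreatic ductal cancer GATA6, HNF4A and PDX1 are known as markers of the classical, more differentiated state. SOX17 is also a factor of arterial endothelium, so in a tumour it can come from vessels of the host.

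Sox17 and Sox9 are the factors with the largest differences, and both encode proteins with an HMG box, the DNA-binding domain of the SOX family. The stretches below are shown because reads of such paralogs could in principle be confused. Each is the coding sequence of 120 bases where the 2 genes are most alike, from GENCODE M21 transcripts on GRCm38. The Sox17 stretch is bases 265 to 384 of a coding sequence of 1257 bases and lies in exons 4 and 5 of 5 (chr1:4492592-4493142, minus strand, with an intron between). The Sox9 stretch is bases 376 to 495 of 1521 and lies in exons 1 and 2 of 3 (chr11:112782960-112783872, plus strand, with an intron between). Capitals mark the 26 bases that differ, and the other 94, or 78.3%, are the same in both.
Sox17: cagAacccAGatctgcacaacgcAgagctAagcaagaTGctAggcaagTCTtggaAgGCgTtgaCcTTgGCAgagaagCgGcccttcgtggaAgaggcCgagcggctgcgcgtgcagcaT
Sox9: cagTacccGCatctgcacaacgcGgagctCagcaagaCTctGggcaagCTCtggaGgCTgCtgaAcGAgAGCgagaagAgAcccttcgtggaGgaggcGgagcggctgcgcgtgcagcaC
The longest run of identical bases between any of their transcripts was 20 bases. It was 18 bases between Gata4 and Gata6 and 20 bases between Foxa2 and Foxa3.

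Promoters of 4 of the 8 factors are in the RefSeq table used here (GRCm38.p6), Hnf4a with 2 windows, Foxa2 with 3, and Pdx1 and Foxa3 with 1 each, from 250 bases before the start site to 50 after it. Entries for Sox17, Sox9, Gata6 and Gata4 are missing. The 7 windows were searched on both strands for AGATAA (bound by GATA factors), TGTTTAC (FOXA), CAAAGTC (HNF4), ACAAT (SOX) and TAATTA (PDX1), letters that do not overlap each other in any match here. The windows with a match are shown because they belong to Hnf4a, the factor with the highest level per length in 3 of the 4 groups, and to Foxa2, which differed between KO and WT tumours. Capitals mark the matches. Window 1 of Hnf4a (chr2:163506607-163506906, plus strand) has ACAAT at 134 bases and AGATAA at 52 bases before the start site, and window 2 (chr2:163546905-163547204, plus strand) has TAATTA at 165 bases before its start site. Window 3 of Foxa2 (chr2:148045415-148045714, minus strand) has AGATAA at 183 bases before its start site.
Hnf4a window 1: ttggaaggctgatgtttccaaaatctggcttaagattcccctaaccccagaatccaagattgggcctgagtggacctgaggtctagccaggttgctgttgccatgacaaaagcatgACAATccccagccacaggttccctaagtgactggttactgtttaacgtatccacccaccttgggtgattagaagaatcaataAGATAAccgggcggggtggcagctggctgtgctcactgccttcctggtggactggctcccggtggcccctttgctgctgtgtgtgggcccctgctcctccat
Hnf4a window 2: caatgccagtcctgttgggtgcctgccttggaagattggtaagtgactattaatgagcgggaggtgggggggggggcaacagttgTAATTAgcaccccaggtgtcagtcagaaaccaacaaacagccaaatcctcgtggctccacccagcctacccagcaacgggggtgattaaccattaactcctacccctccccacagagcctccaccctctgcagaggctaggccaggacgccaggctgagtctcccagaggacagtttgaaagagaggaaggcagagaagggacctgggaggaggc
Foxa2 window 3: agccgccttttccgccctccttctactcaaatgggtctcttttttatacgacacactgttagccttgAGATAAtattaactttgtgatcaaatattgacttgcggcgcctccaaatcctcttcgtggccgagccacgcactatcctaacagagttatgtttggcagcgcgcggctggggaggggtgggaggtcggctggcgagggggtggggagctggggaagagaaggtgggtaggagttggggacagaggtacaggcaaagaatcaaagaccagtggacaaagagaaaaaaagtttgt
Of the 32817 promoter windows in the table, 11.2% hold AGATAA, 31.0% ACAAT, 5.30% TAATTA, 3.65% TGTTTAC and 4.44% CAAAGTC. The other 4 windows hold none of these letters.

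Library totals ran from 16032912 to 19562695 counts in the tumours and from 17738774 to 21247023 in the cultures, with 1.90% to 4.72% of counts from mitochondrial genes. Itga2, the targeted gene, stood at 44.5 and 64.1 CPM in KO tumours against 119, 144 and 137 CPM in WT tumours, and at 96.5 and 104 CPM in KO cultures against 168 and 135 CPM in WT cultures (log2 fold changes of -1.32 in tumours, edgeR adjusted p = 0.00602, and -0.64 in cultures, adjusted p = 0.0135). The culture call was lost without KO culture 1 or WT culture 1, fits that leave 1 library in a group. It was also lost in 1 fit of all 9 libraries (edgeR adjusted p = 0.0529). No library went against its label, and the labels do not say which part of the gene was altered. CPM are counts relative to the library total, here scaled by TMM factors over all 9 libraries. Krt8, a defining marker of epithelium, averaged 3258 CPM in KO tumours, 1639 in WT tumours, 3392 in KO cultures and 3908 in WT cultures. Epcam, the other one, averaged 37.6, 110, 0.0347 and 3.50 CPM in the same groups, which makes 1 count in all in KO cultures. In the tumours the summed level of 5 epithelial markers was 7302 to 9113 CPM in KO and 4112 to 5333 CPM in WT, that of 10 endothelial markers 49.8 to 105 CPM in KO and 90.5 to 214 CPM in WT, and Col1a1 of fibroblasts averaged 234 CPM in KO and 902 CPM in WT. The 11 markers of fibroblasts and mesothelium summed to 1053 and 1155 CPM in KO tumours against 1443 to 3407 CPM in WT tumours, with 1 higher, 5 lower and 4 not called of the 10 tested, and to 2133 and 2232 CPM in KO cultures against 1000 and 1050 CPM in WT cultures, where 3 to 5 of the 11 were detected in each of the 4 libraries. The epithelial sum was thus higher and Epcam lower in KO tumours. Markers of macrophages summed to 216 and 374 CPM in KO tumours against 169 to 275 CPM in WT tumours, and those of T cells to 21.4 and 47.9 CPM in KO against 4.38 to 16.3 CPM in WT. Between KO and WT tumours 0 of the 8 macrophage and 0 of the 5 T cell markers were called, where 19.7% of all genes tested were. The macrophage sum was 196 and 212 CPM in KO cultures and 220 and 230 CPM in WT cultures, with only 3 to 5 of the 8 markers detected in each library. The T cell sum was 4.28 and 2.15 CPM in KO cultures and 4.17 and 2.28 CPM in WT cultures, with 1 of the 5 markers detected in each library. The part of these cell types in the tumour results was not tested. In bulk RNA, fewer cells of a type and less RNA per cell cannot be told apart.

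Sox17 stood at 56.0 and 55.7 CPM in KO tumours against 11.0, 8.74 and 13.0 CPM in WT tumours, and at 224 and 192 CPM in KO cultures against 36.7 and 33.3 CPM in WT cultures. Every KO library was above every WT library of its setting, and the KO cultures were the highest of all. Sox9, the progenitor and duct factor, went the other way, with 30.5 and 38.9 CPM in KO tumours against 153, 176 and 107 CPM in WT tumours, and 5.34 and 4.10 CPM in KO cultures against 25.4 and 24.7 CPM in WT cultures. Every KO library was below every WT library of its setting, and the WT tumours were the highest of all. Behind the lowest Sox9 values were 96 and 59 counts, and behind the lowest Sox17 values 174 to 305.

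Sox17 (chr1:4490931-4497354) rose in KO, by 2.34 log2 units in tumours (SE 0.18, edgeR adjusted p = 0.00129) and by 2.53 in cultures (SE 0.17, adjusted p = 6.31e-07), which is 5.05-fold and 5.77-fold. Sox9 (chr11:112782224-112787760) fell in KO, with log2 fold changes of -2.09 in tumours (SE 0.24, edgeR adjusted p = 0.00384) and -2.44 in cultures (SE 0.22, adjusted p = 7.1e-06), which is 4.25-fold and 5.43-fold lower. The p is that of edgeR's quasi-likelihood test, adjusted over all genes tested by Benjamini and Hochberg with a threshold of 0.05. In size, the changes of Sox17 and Sox9 exceeded those of 94.1% and 93.0% of the 16257 genes tested in tumours and of 94.9% and 94.7% of the 13573 tested in cultures. All 4 calls held in every alternative setting and without any 1 library. In cultures the endothelial markers summed to 0.486 to 1.37 CPM in the 4 libraries, with 2 to 5 of the 10 markers detected and Pecam1 at 0 in both KO cultures, while Sox17 stood at 192 and 224 CPM there.

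**Figure D1:**
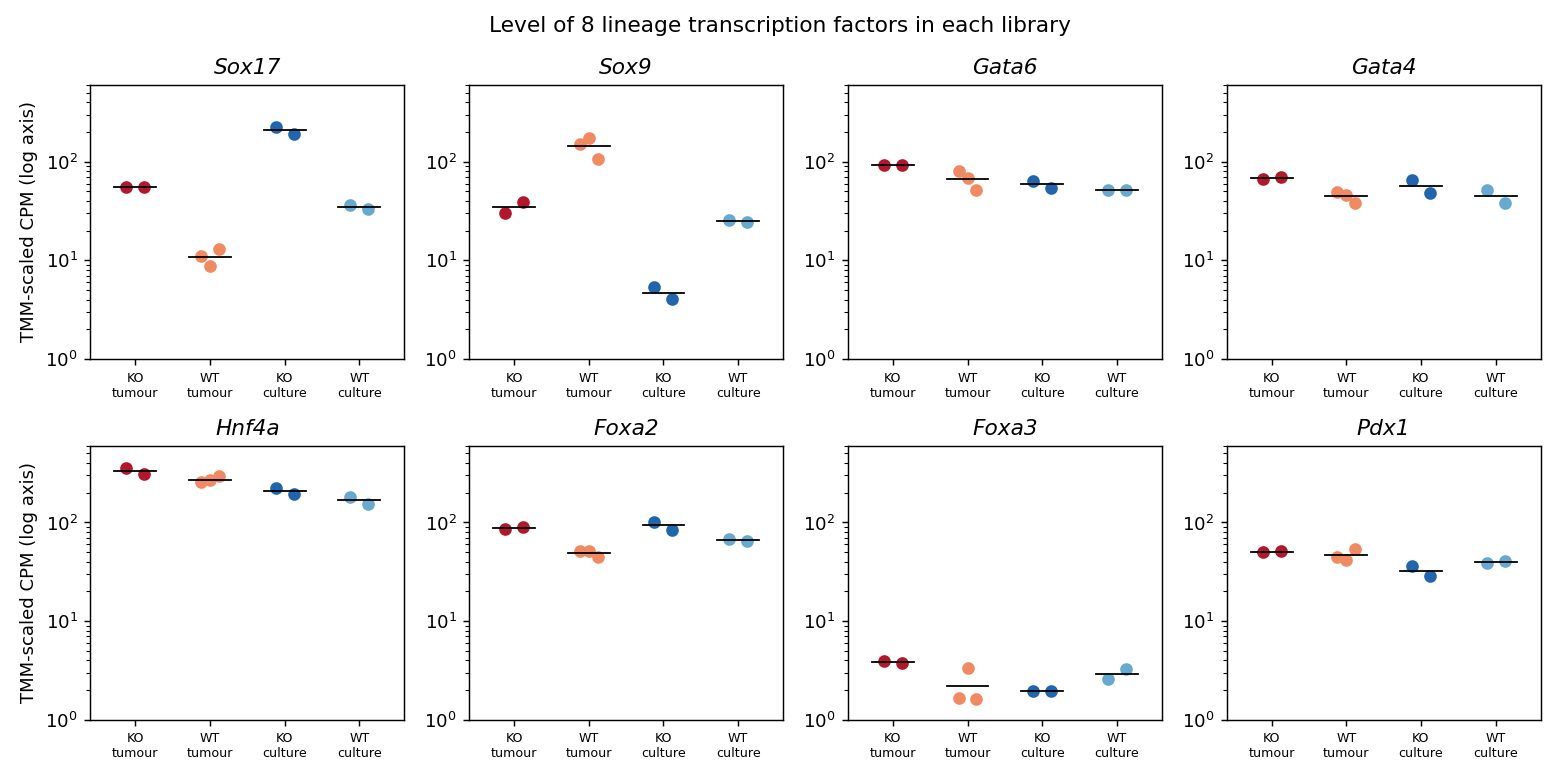
Level of each factor in each of the 9 libraries, as TMM-scaled CPM on a log axis (1 panel a gene, 1 point a library, the line is the group mean). Sox17 is higher and Sox9 lower in every KO library than in every WT library of the same setting, while the other 6 factors lie closer together across the 4 groups.

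Set against each other per length, the order of the pair differed between groups. Levels between genes are given here as CPM per kb of exon, with exon lengths from GENCODE M21. The ratio of Sox17 to Sox9 was 1.59 and 1.24 in KO tumours against 0.0625, 0.0431 and 0.105 in WT tumours. It was 36.4 and 40.7 in KO cultures against 1.25 and 1.17 in WT cultures. Sox17 was thus the more abundant of the pair in all KO libraries and both WT cultures, and Sox9 in the 3 WT tumours. Sox17 made up 6.35% and 6.49% of the summed per-kb level of the 8 factors in KO tumours against 1.11% to 1.79% in WT tumours, and 25.7% and 26.5% in KO cultures against 6.36% and 6.31% in WT cultures.

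**Figure D2:**
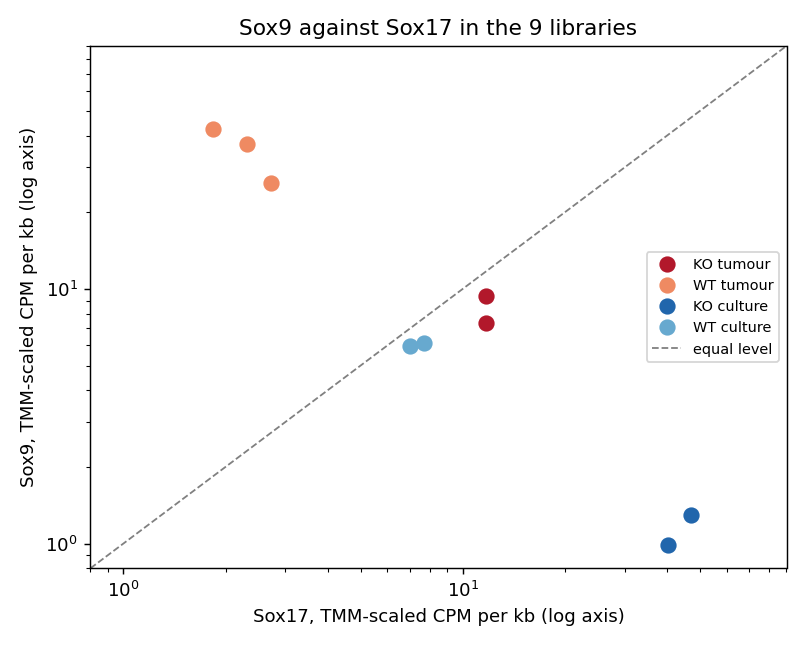
Sox9 against Sox17 in the 9 libraries, both as TMM-scaled CPM per kb on log axes, with the dashed line at equal levels. KO tumours and WT cultures lie near the line with Sox17 to Sox9 ratios of 1.17 to 1.59, KO cultures lie far below it and WT tumours far above it.

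The GATA factors open chromatin at endoderm genes and are partly redundant in the pancreas of the mouse embryo. Gata6 stood at 91.8 and 93.1 CPM in KO tumours against 81.2, 69.1 and 51.8 CPM in WT tumours, and at 64.5 and 54.7 CPM in KO cultures against 51.8 and 52.3 CPM in WT cultures. The KO libraries were above the WT libraries in both settings, but the difference of 0.44 log2 units in tumours (SE 0.19, edgeR adjusted p = 0.156) and of 0.15 in cultures (SE 0.17, adjusted p = 0.544) did not pass the test. Gata4 (chr14:63198922-63271692) stood at 66.0 and 70.1 CPM in KO tumours against 49.8, 45.7 and 38.2 CPM in WT tumours, and at 66.0 and 48.3 CPM in KO cultures against 51.8 and 38.6 CPM in WT cultures. The groups did not overlap in tumours and overlapped in cultures. Gata4 rose in KO tumours by 0.59 (SE 0.14, edgeR adjusted p = 0.033), a call that was lost without any 1 of the 5 tumour libraries (adjusted p from 0.0509 to 0.118) and with scaling by library totals (adjusted p = 0.0553). In cultures its difference was 0.30 (SE 0.21, edgeR adjusted p = 0.33). The ratio of Gata4 to Gata6 per kb was 1.20 and 1.26 in KO tumours, 1.02 to 1.23 in WT tumours, 1.71 and 1.47 in KO cultures and 1.67 and 1.23 in WT cultures.

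Hnf4a (chr2:163506808-163572910) encodes a nuclear receptor that maintains liver, gut and islet genes. It stood at 353 and 307 CPM in KO tumours against 255, 269 and 292 CPM in WT tumours, and at 225 and 196 CPM in KO cultures against 183 and 154 CPM in WT cultures. KO libraries were above WT libraries in both settings by small margins. The differences of 0.26 in tumours (SE 0.13, edgeR adjusted p = 0.194) and 0.28 in cultures (SE 0.17, adjusted p = 0.254) did not pass the test.

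The FOXA proteins are pioneer factors that bind closed chromatin ahead of other endoderm factors. Foxa2 (chr2:148042877-148046969) stood at 86.1 and 89.1 CPM in KO tumours against 51.7, 51.7 and 44.8 CPM in WT tumours, and at 102 and 84.3 CPM in KO cultures against 68.6 and 64.5 CPM in WT cultures. No KO library overlapped with a WT library of its setting. Foxa2 rose in KO tumours by 0.81 (SE 0.12, edgeR adjusted p = 0.00763), while its difference of 0.44 in cultures (SE 0.17) missed the threshold (edgeR adjusted p = 0.07). In 1 fit of all 9 libraries the culture difference passed it (edgeR adjusted p = 0.0477). Foxa3 (chr7:19013284-19023538), best known for its role in liver, was far scarcer, with 3.91 and 3.78 CPM in KO tumours against 1.65, 3.32 and 1.62 CPM in WT tumours, and 1.95 and 1.94 CPM in KO cultures against 2.59 and 3.26 CPM in WT cultures. Its KO libraries were above the WT libraries in tumours and below them in cultures, on 28 to 70 counts a library, and neither 0.79 in tumours (SE 0.40, edgeR adjusted p = 0.211) nor -0.63 in cultures (SE 0.34, adjusted p = 0.203) passed the test. Foxa2 exceeded Foxa3 per kb 18.9-fold and 20.3-fold in KO tumours, 13.4-fold to 26.9-fold in WT tumours, 45.1-fold and 37.3-fold in KO cultures and 22.8-fold and 17.0-fold in WT cultures.

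Pdx1 (chr5:147269959-147275848), without which no pancreas forms in the mouse, differed least in tumours. It stood at 50.2 and 50.9 CPM in KO tumours against 45.0, 41.3 and 54.0 CPM in WT tumours, and at 36.2 and 28.6 CPM in KO cultures against 38.7 and 40.7 CPM in WT cultures. The groups overlapped in tumours, and the KO cultures were below the WT cultures. The differences were 0.09 in tumours (SE 0.14, edgeR adjusted p = 0.684) and -0.33 in cultures (SE 0.18, adjusted p = 0.208).

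**Figure D3:**
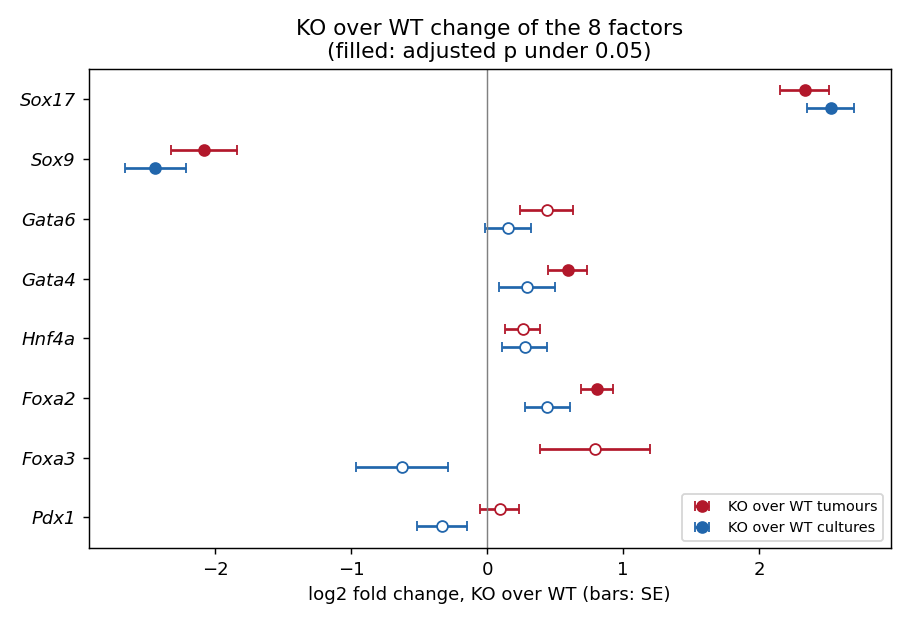
Difference between KO and WT of each factor as a log2 fold change (KO over WT) with its SE, in tumours and in cultures, with filled points where the edgeR adjusted p was under 0.05. Sox17 lies beyond 2 and Sox9 beyond -2 in both settings, while the other 6 factors lie between -0.63 and 0.81.

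Counted together, 3 of the 8 factors rose (Sox17, Gata4 and Foxa2) and 1 fell (Sox9) in KO tumours, where 19.7% of all genes tested passed, 8.78% higher and 10.9% lower. In KO cultures 1 rose (Sox17) and 1 fell (Sox9), near the background share of 25.5% (9.27% higher and 16.2% lower). The median log2 difference of the 8 factors was 0.52 in tumours and 0.22 in cultures, against -0.01 and -0.0003 over all genes tested. KO tumours did not overlap with WT tumours in 7 of the 8 factors, nor in 53.7% of genes tested, and KO cultures did not overlap with WT cultures in 7, nor in 62% of genes tested. The summed epithelial markers were also higher in KO than in WT tumours (7302 to 9113 against 4112 to 5333 CPM). Of the 5 markers 2 were called higher, 1 lower and 2 not called, and Epcam averaged lower in KO. The part of tumour makeup in the tumour values of Gata4 and Foxa2 was not tested. In cultures the epithelial sums of KO and WT overlapped (9728 and 10079 against 9457 and 10331 CPM).

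The KO over WT difference in tumours was next set against that in cultures, by an interaction term in 1 fit of all 9 libraries. None of the 8 factors passed the test, where 5.69% of the 16793 genes tested did (4.15% higher and 1.54% lower). The difference was -0.22 log2 units for Sox17 (SE 0.25, edgeR adjusted p = 0.689) and 0.33 for Sox9 (SE 0.33, adjusted p = 0.628). It was farthest from 0 for Foxa3, at 1.40 (SE 0.57, edgeR adjusted p = 0.186), the 1 factor with an unadjusted p under 0.05. DESeq2 and limma-voom called 0 of the 8 as well.

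In the labels, batch and setting coincide, so tumour against culture and batch cannot be told apart, and host cells were part of the tumour samples alone. Sox17 fell in tumours against cultures of the same line, with log2 fold changes of -1.85 in KO (SE 0.18, edgeR adjusted p = 7.98e-05) and -1.72 in WT (SE 0.18, adjusted p = 3.23e-05). Sox9 rose, by 2.92 in KO (SE 0.28, edgeR adjusted p = 5.95e-05) and by 2.49 in WT (SE 0.22, adjusted p = 1.17e-05). Sox17 was thus lower and Sox9 higher in tumours of both lines. Hnf4a rose in tumours of both lines, by 0.70 in KO (SE 0.18, edgeR adjusted p = 0.00961) and by 0.65 in WT (SE 0.13, adjusted p = 0.00193). In KO, Gata6 also rose, by 0.68 (SE 0.19, edgeR adjusted p = 0.0122), and Pdx1, by 0.69 (SE 0.21, adjusted p = 0.0177). In WT, Foxa2 fell by 0.47 (SE 0.13, edgeR adjusted p = 0.00812).

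Of the 8 factors, 4 rose and 1 fell in KO tumours against KO cultures, where 55.4% of genes tested passed (30.4% higher and 25% lower), and 2 rose and 2 fell in WT tumours against WT cultures, where 69.9% passed (37.5% higher and 32.4% lower). The groups did not overlap for 7 and 5 of the factors, against 81.2% and 82.3% of genes tested. Without KO culture 2 only the calls of Sox17 and Sox9 held in KO, with Gata6 (edgeR adjusted p = 0.155), Hnf4a (adjusted p = 0.146) and Pdx1 (adjusted p = 0.205) past the threshold no more, and without KO culture 1 the call of Hnf4a was lost (adjusted p = 0.0521). Scaling by library totals in place of TMM moved the median of all genes to 0.48 in KO, against 0.10 with TMM, and to 0.63 in WT, against 0.12 with TMM. Genes called higher and lower were then 5980 and 2190 in KO, against 4465 and 3664 with TMM, and 8554 and 3214 in WT, against 6091 and 5264 with TMM. Relative to that median Sox17 then stood at -1.95 and Sox9 at 2.82 in KO, and at -1.84 and 2.37 in WT. Foxa2 in WT, a called fall, became 0.0408 under library totals, or -0.59 relative to the median of all genes. Under that scaling Gata4 (edgeR adjusted p = 0.0388) and Foxa3 (adjusted p = 0.0254) passed in KO, at 0.19 and 0.93 relative to the median, and Gata6 (adjusted p = 0.00286) and Pdx1 (adjusted p = 0.00276) in WT, at 0.21 and 0.08. Gata6 in WT also passed without WT tumour 3 (edgeR adjusted p = 0.00323).

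The order of the 8 levels per kb differed between the groups. In KO tumours Hnf4a led with 68.4 ± 6.76 CPM per kb (SD, n = 2), followed by Foxa2, Pdx1, Gata4, Gata6, Sox17, Sox9 and Foxa3, and no neighbours in that order overlapped. In WT tumours Hnf4a led with 56.4 ± 3.88 (n = 3), then came Sox9 with 35.1 ± 8.41, Pdx1, Foxa2, Gata4, Gata6, Sox17 and Foxa3, and the libraries of Pdx1 and Foxa2 and of Gata4 and Gata6 overlapped. In KO cultures Sox17 with 43.6 ± 4.70, Hnf4a with 43.5 ± 4.24 and Foxa2 with 39.3 ± 5.32 (n = 2) overlapped from each to the next, ahead of Pdx1 and Gata4, which overlapped too, Gata6, Sox9 and Foxa3. In WT cultures Hnf4a led with 34.9 ± 4.16 (n = 2), followed by Foxa2, Pdx1, Gata4, Gata6, Sox17, Sox9 and Foxa3 with no overlap between neighbours. KO tumours and WT cultures thus had the same order, and Foxa3 was last in all 4 groups, at 0.955 to 1.89 CPM per kb on average.

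Genes whose pattern over the 9 libraries was most like that of a factor were sought among 10913 genes, by the root mean square difference of log2 levels centred on each gene's mean. For Sox17, whose own range was 4.53 log2 units, they were Pkhd1l1 (0.48), Arhgap40 (0.50) and Nt5e (0.54), the gene of CD73, which makes adenosine outside the cell. For Sox9, with a range of 5.12, they were Kctd17 (0.22), Flt1 (0.26), a receptor of vascular endothelial growth factor, and Mcf2l (0.27). Flt1, like Sox9, was lower in KO, at 26.9 CPM in KO tumours against 111 in WT tumours and 3.26 CPM in KO cultures against 25.3 in WT cultures. For the flatter factors the closest gene was Gpi1 for Gata6 (0.09), Myof for Gata4 (0.11), Ids for Hnf4a (0.06), Rapgef5 for Foxa2 (0.10) and Shkbp1 for Pdx1 (0.07), whose own ranges were 0.83 to 1.19.

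Genes that overlap a factor could share its reads, as the strand setting of the counting is not given in the sources used here. Gm37587, antisense to Sox17, covers 804 bases (16.8%) of its exons and had 0 to 8 counts a library. 1010001N08Rik covers 93 bases (1.43%) of the exons of Gata6 and had 11 to 57 counts a library. Hnf4aos and Plut lie antisense to Hnf4a and Pdx1 with no overlap of exons.

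Other factors of the endoderm and foregut, 16 by list, were higher for 0 and lower for 4 of the 14 tested in KO tumours, and higher for 2 and lower for 1 of the 12 tested in KO cultures, with medians of -0.24 and 0.05 (also -0.24 with the 2 genes that had no count in KO tumours at their bounds). Of all genes tested, 8.78% were higher and 10.9% lower in KO tumours, and 9.27% higher and 16.2% lower in KO cultures. Without WT tumour 1 the count that fell in tumours was 1 of 13 tested, where 797 of all 15850 genes tested fell. Without WT tumour 2 it was again 1 of 13, where 754 of all 15915 fell. The count that rose in cultures was lower without KO culture 1, WT culture 1 or WT culture 2. Those fits leave 1 library in a group, and fewer of all genes rose in them too. Glis3, a factor of islets and ducts, fell to 39.4 ± 8.27 CPM in KO tumours, against 67.6 ± 2.71 CPM in WT tumours (SD, n = 2 and 3, edgeR adjusted p = 0.0149). Ehf, an ETS factor of epithelium, fell to 69.5 ± 39.7 CPM in KO tumours, against 230 ± 11.1 CPM in WT tumours (edgeR adjusted p = 0.0154), and to 29.2 ± 2.85 CPM in KO cultures, against 46.5 ± 6.00 CPM in WT cultures (adjusted p = 0.0119). Prox1, a factor of early pancreas and lymphatic vessels, had no count in KO tumours and 53 in WT tumours, at least 9.84-fold lower against a floor of 3 counts over the group. Gata5, another endoderm GATA factor, rose to 55.6 ± 5.66 CPM in KO cultures, against 36.3 ± 2.20 CPM in WT cultures (edgeR adjusted p = 0.0277). The tumour calls of Glis3 and Ehf were lost without WT tumour 1 (edgeR adjusted p = 0.059 and 0.0524) or WT tumour 2 (0.0618 and 0.0582). The culture call of Gata5 was lost without KO culture 1, WT culture 1 or WT culture 2, and with scaling by library totals (edgeR adjusted p = 0.0645). That of Ehf was lost without KO culture 2 or WT culture 1, and in 1 fit of all 9 libraries (edgeR adjusted p = 0.162).

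Endocrine factors were nearly absent, with 5 of 12 at 0 counts in all 9 libraries and 10 under 1 CPM in all. Of the 2 tested in tumours 0 passed with edgeR or limma-voom, and DESeq2 called 1 lower. Of all 16257 genes tested there, edgeR called 19.7%, limma-voom 2942 genes and DESeq2 4178 genes. With edgeR 1 of them, Rfx6, an islet factor with no count in KO tumours and 47 in WT tumours, had an unadjusted p under 0.05. Of the 12 acinar genes, 10 were under 1 CPM in all libraries. In KO tumours 1 of the 2 tested fell and 0 rose, and the 1 tested in KO cultures fell. Of all genes tested, 8.78% were higher and 10.9% lower in KO tumours, and 9.27% higher and 16.2% lower in KO cultures. Bhlha15, a factor of acinar secretion, averaged 1.43 CPM in KO tumours and 0.688 CPM in WT tumours and did not pass the test. Cela1, an elastase, fell to 6.70 ± 2.99 CPM in KO tumours, against 26.0 ± 6.84 CPM in WT tumours (SD, n = 2 and 3, edgeR adjusted p = 0.0152), and to 12.6 ± 1.23 CPM in KO cultures, against 42.9 ± 10.3 CPM in WT cultures (n = 2 each, adjusted p = 4.63e-05). Its tumour call was lost without WT tumour 1 (edgeR adjusted p = 0.0514) or WT tumour 2 (adjusted p = 0.0552).

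All 12 duct genes were tested, and 3 rose and 3 fell in KO tumours, while 2 rose and 3 fell in KO cultures, with medians of 0.27 and -0.35. The shares over all genes were 8.78% higher and 10.9% lower in tumours, and 9.27% and 16.2% in cultures. Spp1, the secreted osteopontin of ducts, fell to 1526 ± 47.8 CPM in KO tumours, against 3324 ± 447 CPM in WT tumours (SD, n = 2 and 3, edgeR adjusted p = 0.00642), and to 1564 ± 112 CPM in KO cultures, against 4788 ± 694 CPM in WT cultures (n = 2 each, adjusted p = 0.000101). Slc4a4, the bicarbonate cotransporter of ducts, rose in both, to 244 ± 24.7 CPM in KO tumours against 121 ± 27.0 CPM in WT tumours (edgeR adjusted p = 0.0189) and to 119 ± 14.8 CPM in KO cultures against 60.2 ± 3.96 CPM in WT cultures (adjusted p = 0.00112). Cftr, the chloride channel of ducts, fell to 41.1 ± 17.6 CPM in KO tumours, against 190 ± 39.5 CPM in WT tumours (edgeR adjusted p = 0.00699), and rose to 13.2 ± 1.63 CPM in KO cultures, against 6.23 ± 0.508 CPM in WT cultures (adjusted p = 0.00486). Krt19 and Muc1, a keratin and a mucin of duct cells, rose in KO tumours, by 1.04 (SE 0.19, edgeR adjusted p = 0.015) and 1.29 (SE 0.20, adjusted p = 0.00907), and the call of Krt19 was lost without WT tumour 2 (adjusted p = 0.0686). Without WT tumour 1, 2 duct genes rose and 2 fell, where 461 of all 15850 genes tested rose and 797 fell. Without WT tumour 2 the duct counts were again 2 and 2, where 417 of all 15915 genes tested rose and 754 fell.

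Gut patterning factors, 12 by list, rose for 0 and fell for 1 of the 6 tested in KO tumours, and rose for 0 and fell for 3 of the 6 tested in KO cultures, with medians of 0.06 and -0.50, beside shares of 8.78% higher and 10.9% lower among all genes in tumours and of 9.27% and 16.2% in cultures. Irx3, a homeobox factor, fell to 0.270 and 1.34 CPM in the 2 KO tumours, against 6.38 to 8.89 CPM in WT tumours (edgeR adjusted p = 0.0151), though without WT tumour 1 (adjusted p = 0.0504) or WT tumour 2 (adjusted p = 0.056) it no longer passed. In cultures it had 1 count in KO and 103 in WT, a ratio of 0.00934 (95% counting interval 0.000234 to 0.0532). Cdx2, the intestinal homeobox factor, fell to 31.6 ± 0.839 CPM in KO cultures, against 46.0 ± 0.474 CPM in WT cultures (SD, n = 2 each, edgeR adjusted p = 0.0215), and Isx, a gut homeobox factor, to 0.146 ± 0.108 against 1.47 ± 0.238 CPM (adjusted p = 0.00211). The call of Cdx2 was lost without any 1 of the 4 culture libraries, and in 1 fit of all 9 libraries (edgeR adjusted p = 0.152). Of the early endoderm and other SOXF genes, Eomes, which acts above Sox17 in the embryo, fell to 0.153 ± 0.0197 CPM in KO cultures, against 2.93 ± 0.476 CPM in WT cultures (edgeR adjusted p = 9.42e-05), while 0 of the 5 tested in tumours passed with edgeR, DESeq2 or limma-voom, and 0 had an unadjusted p under 0.05 with edgeR. Sox7 and Sox18, the other SOXF genes, had no count in KO cultures and at most 1 a library in WT cultures.

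Among 12 other GATA and SOX family members and cofactors, 1 rose and 2 fell of the 7 tested in KO tumours, and 2 rose and 2 fell of the 6 tested in KO cultures. Among all genes 8.78% rose and 10.9% fell in KO tumours, and 9.27% rose and 16.2% fell in KO cultures. Sox11, a SOX factor of progenitor cells, stood at 0.175 and 0.378 CPM in KO tumours against 10.1 to 25.1 CPM in WT tumours (edgeR adjusted p = 0.00287). In cultures it had 1 count in KO and 270 in WT, a ratio of 0.00356 (95% counting interval 8.99e-05 to 0.0200). Zfpm2, a cofactor of GATA4, fell to 3.09 ± 0.822 CPM in KO tumours, against 7.09 ± 1.77 CPM in WT tumours (SD, n = 2 and 3, edgeR adjusted p = 0.0462), and rose to 34.2 ± 0.754 CPM in KO cultures, against 18.3 ± 3.66 CPM in WT cultures (n = 2 each, adjusted p = 0.00648). The tumour call of Zfpm2 was lost without KO tumour 1 and without each of the WT tumours (edgeR adjusted p from 0.0925 to 0.128). It was also lost with limma-voom (limma-voom adjusted p = 0.0543). The culture call of Zfpm2 was lost without WT culture 2. Gata3 rose in KO tumours by 1.24 (SE 0.31, edgeR adjusted p = 0.0356). It did not pass without KO tumour 1, KO tumour 3, WT tumour 1 (edgeR adjusted p = 0.131) or WT tumour 2 (0.138). With scaling by library totals it did not pass either (edgeR adjusted p = 0.0506).

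Genes that hepatocyte nuclear factors are known to activate in liver or intestine, 16 by list, were counted in each setting. In KO tumours 7 of the 12 tested rose and 0 fell, with a median of 0.82, while in KO cultures 0 of the 9 tested rose and 3 fell, with a median of -0.47. For all genes tested the shares were 8.78% higher and 10.9% lower in KO tumours, and 9.27% higher and 16.2% lower in KO cultures. Apob, the core protein of lipoproteins, rose to 1071 ± 296 CPM in KO tumours, against 344 ± 52.8 CPM in WT tumours (SD, n = 2 and 3, edgeR adjusted p = 0.00537), with 321 ± 37.8 CPM in KO cultures against 255 ± 33.6 CPM in WT cultures (n = 2 each). Fabp1, the fatty acid binding protein of liver and gut, rose to 15.9 ± 8.25 CPM in KO tumours, against 1.10 ± 0.420 CPM in WT tumours (edgeR adjusted p = 0.00415), and fell to 0.396 ± 0.0690 CPM in KO cultures, against 3.27 ± 0.469 CPM in WT cultures (adjusted p = 0.000298). Lgals4, a galectin of the gut, rose by 1.41 in KO tumours (SE 0.18, edgeR adjusted p = 0.00478). Vil1, the villin of microvilli, and Ambp, a plasma protein of liver, fell in KO cultures, with log2 fold changes of -1.30 (SE 0.18, edgeR adjusted p = 0.000159) and -4.23 (SE 0.33, adjusted p = 2.14e-06).

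The difference of the KO over WT values between tumours and cultures passed for 6 of the 12, each higher in tumours, where 5.69% of genes tested passed. Hnf4a itself differed by 0.26 and 0.28, and its difference of -0.04 between the settings did not pass (edgeR adjusted p = 0.966). Without WT tumour 2 the tumour count of genes that rose was 3 of the 12, where 417 of all 15915 genes tested rose. The tumour count was also lower without KO tumour 1, and the count for the difference without any 1 culture library. Those fits leave 1 library in a group, and fewer of all genes passed in them too. The marker sums of epithelium and T cells were higher in both KO tumours than in every WT tumour. That of fibroblasts and mesothelium was lower, while those of endothelium and macrophages overlapped. The part of tumour makeup in these values was not tested.

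**Figure D4:**
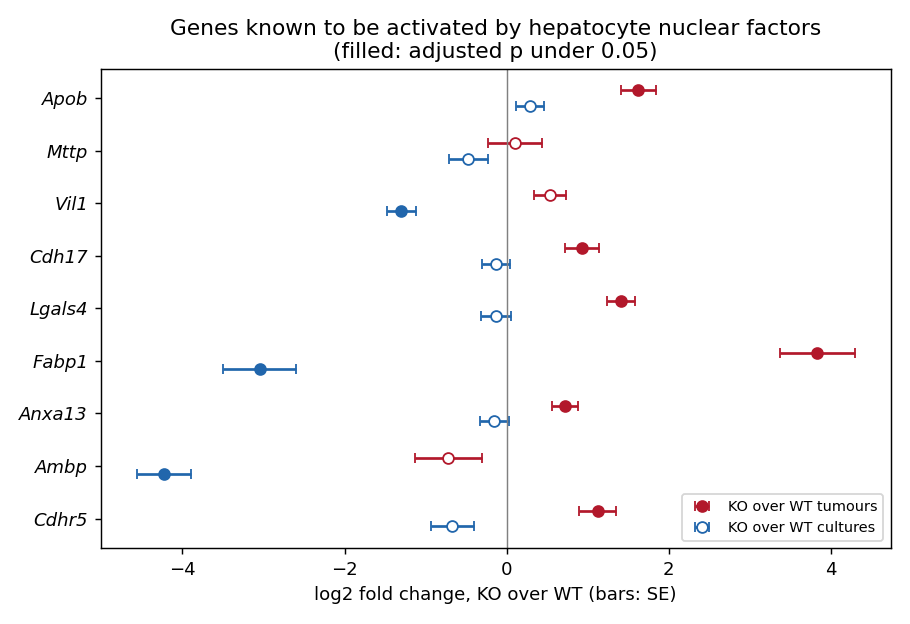
Difference between KO and WT of the 9 genes activated by hepatocyte nuclear factors that were tested in both settings, as a log2 fold change (KO over WT) with its SE, with filled points where the edgeR adjusted p was under 0.05. In tumours 8 of the 9 lie above 0, while in cultures 8 of the 9 lie below it, with Apob the one above.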

How the data were processed

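RNA from 4 cultures and 5 tumours was sequenced as poly(A) libraries with molecular identifiers and deduplicated by them, per the labels' protocols. The authors deposited raw counts per gene in 1 table for the cultures and 1 for the tumours, each with 49671 genes. The submitters' processing notes list the builds GRCm38 and mm10 and, with no role or order, the tools STAR 2.5.2b, fastp 0.23.1, DESeq2, Subread 1.5.2 and featureCounts. The strand setting is not given in the sources used here, nor is the annotation release. The authors' scaled and log-transformed tables were not used. One KO tumour column is numbered 3, a number that no KO tumour label carries, and it was used under that number.

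Each comparison was fitted on its own groups, and the difference of the KO effects on all 9 libraries, with edgeR 4.0.16 (limma 3.58.1, R 4.3.3), using filterByExpr with a minimum count of 10 and a minimum total of 15, TMM scaling and the quasi-likelihood test, with Benjamini-Hochberg adjustment over all genes tested and a threshold of 0.05. Fold changes used a prior count of 0.125, and SEs were obtained from each fold change and its F statistic (absolute log2 value over the root of F). The scripts were tested on simulated data. Patterns were compared on log2(CPM + 1) over genes with a mean of at least 5 CPM. Sequences and lengths came from GENCODE M21 on GRCm38 and from RefSeq promoters on GRCm38.p6. Counting intervals are exact 95% binomial ones, and they and floors of 3 counts cover counting error only.

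The labels call the replicates biological, but nothing says that cultures were begun separately, so p-values measure the spread between these samples. The members, the lists and the rule for named genes (up to 4 a list with the smallest p in tumours and up to 4 in cultures, and the 3 genes most like each factor in pattern) were chosen with earlier results of these data known. Alternatives were other scaling and filters, limma-voom, DESeq2 1.42.0, all 9 libraries in 1 fit, a fold of at least 2, a replicate block and leaving out each library. Some genes of the lists are counted but not reported here by name.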

Additional observations from a re-analysis of the deposited data

Results flagged for a closer look

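None of the 8 factors met a criterion for a closer look. For 11 genes of the lists the KO over WT difference itself differed between tumours and cultures (edgeR's quasi-likelihood test of the interaction, adjusted p under 0.05), and the values below are the tumour difference minus the culture difference in log2 units. Among duct genes it was -3.29 for Cftr (adjusted p = 0.00183), 1.66 for Muc1 (adjusted p = 0.00575) and 1.49 for Krt19 (adjusted p = 0.00902). For Eomes it was 3.52 (adjusted p = 0.0361) and for Zfpm2 -2.10 (adjusted p = 0.00925). Among genes activated by hepatocyte nuclear factors it was 6.87 for Fabp1 (adjusted p = 0.000864), 3.50 for Ambp (adjusted p = 0.0112), 1.81 for Vil1 (adjusted p = 0.00397), 1.77 for Cdhr5 (adjusted p = 0.0196), 1.51 for Lgals4 (adjusted p = 0.00869) and 1.30 for Apob (adjusted p = 0.0255). Under the 17 alternatives, 9 of which leave out 1 library, the calls of Cftr, Muc1, Krt19, Fabp1 and Vil1 held. The call of Eomes was lost under 9 of the 17 (highest edgeR adjusted p = 0.148), which were limma-voom, the replicate block in culture and 7 of the 9 that leave out a library, those without KO tumour 1 and WT tumour 3 being the exceptions. Zfpm2 was lost without KO culture 1 or WT culture 2, and Lgals4 without KO culture 1. Ambp was lost under limma-voom and without KO culture 2 or WT culture 2, Cdhr5 without KO culture 2, WT culture 1 or WT culture 2, and Apob without WT tumour 1 or any 1 of the 4 culture libraries. Culture and tumour libraries carry different batch labels, so setting and batch cannot be told apart.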

How the results depend on the processing

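Of 1215 values recomputed for 89 gene results, 1096 kept their direction and side of the threshold, 82 lost their call, 24 gained one and 13 turned direction, and the cause was not tested. Sox17 and Sox9 kept their calls in the 4 comparisons of 2 groups under every alternative run. Leaving out 1 library gave 2130 to 2985 genes between KO and WT cultures (3461 with all), 1171 to 4143 between the tumours (3206) and 288 to 1651 for the difference (955), and 4544 to 8817 genes and 2 to 5 of the 8 factors between KO tumours and KO cultures (8129 and 5). A fold of at least 2 as a further condition left 1776 genes in cultures, 1832 genes and 2 factors in tumours (4 without it), 7493 genes and 2 factors in WT tumours against WT cultures (11355 and 4), and 2 factors in KO tumours against KO cultures (5). The difference passed for 1875 genes with no filter and 1625 with DESeq2. The culture replicate numbers are not said to pair samples, and same-numbered deviations correlated at 0.404 over 13573 genes. With the replicate block 7587 genes and 6 factors passed in cultures, Gata4 (edgeR adjusted p = 0.00235), Hnf4a (adjusted p = 0.000334), Foxa2 (adjusted p = 2.08e-07) and Pdx1 (adjusted p = 0.00152) being added. With the block in WT tumours against WT cultures 11816 genes and 5 factors passed, Gata6 being added (edgeR adjusted p = 0.00414). A block by the numbers of the tumour columns, chosen after seeing the data and with the KO number 3 in no KO label, left 1428 genes and 2 factors in tumours, the calls of Gata4 (edgeR adjusted p = 0.131) and Foxa2 (adjusted p = 0.0503) being lost. For KO tumours against KO cultures no paired analysis was possible because they share only the number 1. Turned directions concerned differences that did not pass the test, except Foxa2 in WT. In tumours this was Sox18 (-0.91 to 0.11 without 1 library), and for the difference Hnf4a (-0.16 to 0.0857). In WT tumours against WT cultures they were Gata4 (-0.27 to 0.14 without 1 library, 0.44 with library totals, 0.0548 with the block), Foxa2 (0.0408 with totals) and Foxa3 (0.0565 with totals), and in KO Foxa2 (-0.23 to 0.0551, and 0.34 with totals). Foxa3 rested on 28 to 70 counts a library.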
